A study of Mus musculus with 2 samples.

Results

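Hlf, Mllt3, Gfi1, Gfi1b, Prdm16, Msi2, Etv6 and Bmi1 are 8 genes with named roles in the self-renewal of hematopoietic stem cells, and they were followed here through single cells of mouse bone marrow. They were taken by gene name as 8 of 28205 gene features counted, and all 8 were found with transcripts. Stem cell self-renewal is the division of a stem cell into cells that keep its potential, and in the marrow it is held by transcription factors, chromatin proteins and RNA-binding proteins that restrain cycling and block differentiation. Long-term hematopoietic stem cells (LT-HSCs) are mostly quiescent, and many of these regulators are known to be lower once a cell commits to a blood lineage.

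The cells were of 2 kinds mixed into 1 pool. The first were GFP+ cells of Mds1-GFP/+ Flt3-Cre mice, in which a loxP-flanked GFP cassette sits in the Mds1 region of the Mecom locus and Cre recombinase is under Flt3; the only sort marks on these cells were DAPI exclusion and GFP. The second were wild-type SLAM LT-HSCs, sorted as DAPI-, Lin-, cKit+, Sca+, CD48- and CD150+. Both came from marrow depleted of B220, Gr1, Ter119, CD4 and CD8 cells, and the ages and number of mice are not stated in the labels. The submitters' design text counts 46 GFP cells after their own processing and gives all remaining cells as SLAM LT-HSCs. Loss of the cassette where Flt3-Cre has acted limits the reporter to cells without that history.

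Counts came from inDrops, a droplet method that tags each captured transcript with a cell barcode and a unique molecular identifier (UMI). The pool was sequenced as 2 aliquots, which are technical, so n = 1 pool: cell groups could not be tested against each other and no p-values appear. Cells were barcodes of 500 UMIs or more with no more than 20% of them mitochondrial, 1574 of 2147 in aliquot 1 (median 946.5 UMIs) and 1828 of 8662 in aliquot 2 (median 2071.5 UMIs), with 5668067 UMIs in all. Of the barcode names, 461 occurred in both aliquots, 55 of them as kept cells. Their profiles were about as alike under the same name (median r = 0.276) as under different names (0.263). LT-HSC genes were present as labelled, with Kit in 51.4% of cells, Ly6a in 22.2%, Procr in 15.9% and Mecom in 14.9%. Others were rarer, with Ctnnal1 in 4.97%, Fgd5 in 3.12%, Slamf1, the gene of CD150, in 2.70%, Hoxb5 in 1.97% and Neo1 in 1.59%. Markers of other cells were found too: Camp, Ltf, Ngp, S100a8, S100a9, Elane, Mpo and Ctsg of granulocytes in 0.617% to 2.00% of cells each, Gata1 of erythroid and megakaryocyte precursors in 3.91%, and genes of the lymphoid list in 1.09%. Genes of the megakaryocyte list were found in 25.6%, those of the basophil and mast cell list in 2.06% and Flt3 in 4.97%.

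A pair of members are close paralogs that differed in direction in some of the cell sets below, Gfi1 and Gfi1b, and their promoters are shown for that reason. Each is the RefSeq sequence from 250 bases before to 50 bases after the first listed start, and capitals mark, on either strand, GGAA (the core bound by ETS proteins such as Etv6), GATAA (bound by GATA factors) and AAATCA (which holds the AATC core bound by Gfi1 and Gfi1b).
Gfi1 promoter, GRCm38.p6, chr5:107725756-107726055, minus strand: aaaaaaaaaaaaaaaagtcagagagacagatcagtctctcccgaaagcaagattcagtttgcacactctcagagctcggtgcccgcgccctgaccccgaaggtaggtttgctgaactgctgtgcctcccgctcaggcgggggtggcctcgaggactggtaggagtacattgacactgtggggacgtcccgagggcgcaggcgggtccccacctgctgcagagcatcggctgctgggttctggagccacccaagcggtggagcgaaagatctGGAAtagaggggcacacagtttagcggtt
Gfi1b promoter, GRCm38.p6, chr2:28621933-28622232, minus strand: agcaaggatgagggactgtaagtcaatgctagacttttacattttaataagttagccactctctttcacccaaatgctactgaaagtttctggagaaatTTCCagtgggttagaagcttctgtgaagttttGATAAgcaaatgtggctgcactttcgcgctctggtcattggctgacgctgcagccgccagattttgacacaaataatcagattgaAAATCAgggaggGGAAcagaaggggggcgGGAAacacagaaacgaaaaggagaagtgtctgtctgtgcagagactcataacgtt
The Gfi1 window held 1 GGAA match and no match to GATAA or AAATCA, and the Gfi1b window held 3 GGAA, 1 GATAA and 1 AAATCA match, with no overlap between motifs. The shorter AATC core was not marked or counted, and it or its complement GATT occurs outside the capitals in both windows. A second RefSeq start of Gfi1, with a window at chr5:107724294-107724593, held 5 GGAA matches and neither of the other motifs. Of 32851 promoter windows of this length, 96.0% held GGAA or its complement TTCC, 25.4% GATAA or TTATC, and 14.0% AAATCA or TGATTT. Among the other members, AAATCA also occurred in the Etv6 and Bmi1 windows, and GATAA in none. A match describes letters in the window and shows no binding.

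The most frequently detected member was Hlf (chr11:90336536-90390895, minus strand, GRCm38), a PAR bZIP transcription factor and a known mark of stem cells. It had 4144 UMIs, or 731 counts per 1e6 (CPM; 95% Poisson interval 709 to 754), with 842 CPM in aliquot 1 and 686 in aliquot 2. A UMI of Hlf was found in 1812 of 3402 cells, 53.3% (51.6 to 55.0%, exact Clopper-Pearson interval). All intervals here cover counting error only. Mllt3 (chr4:87769925-88033364, minus strand), a subunit that links chromatin marks to the DOT1L and elongation complexes, had 193 CPM in aliquot 1, 166 in aliquot 2 and UMIs in 19.6% of cells. Both were lower per UMI in the deeper aliquot, at a ratio of aliquot 2 to aliquot 1 of 0.814 (0.763 to 0.869) for Hlf and 0.858 (0.750 to 0.984) for Mllt3.

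The zinc finger repressors were found in few cells. Gfi1 (chr5:107716657-107726036, minus strand), which restrains stem cell cycling and promotes granulocyte fate, had 144 UMIs in 94 cells, with 20.7 CPM in aliquot 1 and 27.3 in aliquot 2. Gfi1b (chr2:28609450-28621982, minus strand), its paralog needed for red cells and platelets, had 200 UMIs in 160 cells, with 29.3 and 37.7 CPM. Prdm16 (chr4:154316125-154636873, minus strand), a PR domain protein related to Mecom that maintains stem cells, had 209 UMIs in 173 cells, with 50.0 and 31.5 CPM. The intervals of the aliquots overlapped for Gfi1 and Gfi1b and did not for Prdm16.

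Msi2 (chr11:88339382-88718513, minus strand), an RNA-binding protein that controls translation in stem cells, had 377 CPM in aliquot 1, 342 in aliquot 2 and UMIs in 36.2% of cells. Etv6 (chr6:134035700-134270158, plus strand), an ETS-family repressor required by adult marrow stem cells, had 252 and 243 CPM and UMIs in 27.8%. Bmi1 (chr2:18677018-18686629, plus strand), the Polycomb protein that represses the Cdkn2a locus, had 69.5 and 52.1 CPM and UMIs in 7.52%. At least 1 of the 8 genes was found in 83.2% of cells, and none in 570 cells whose median depth was 1003.5 UMIs. No cell held more than 6 of them. CPM was not divided by gene length, so the levels above order the genes by detection and not by transcript number.

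**Figure D1:**
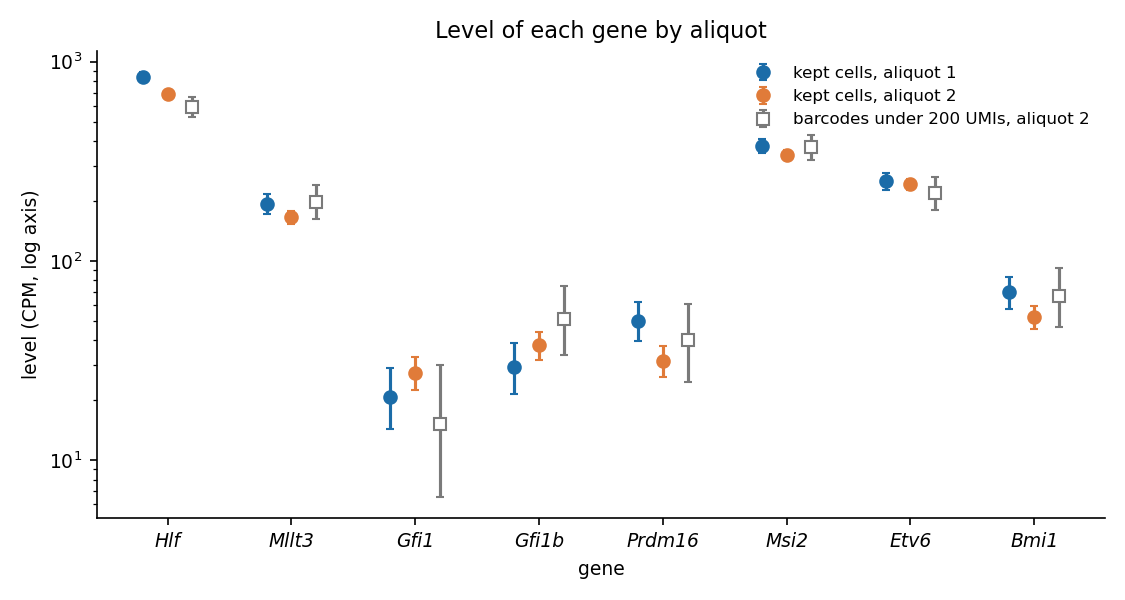
Level of each gene in CPM (log axis) in kept cells of aliquot 1 and aliquot 2 and, as squares, in barcodes of aliquot 2 with fewer than 200 UMIs; bars are 95% Poisson intervals. Hlf sits at 842 and 686 CPM in kept cells, Gfi1 between 20.7 and 27.3, and the shallow barcodes lie at similar levels.

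RNA outside cells can add UMIs to any droplet, and barcodes with fewer than 200 UMIs carried these genes at similar levels: Hlf at 592 CPM (528 to 661) and Mllt3 at 198 CPM (162 to 240) in aliquot 2. If every kept cell carried as many free UMIs as such a barcode, Hlf would have 90.4 of its 2762 UMIs in aliquot 2 from that source, and 196 of 1382 in aliquot 1. A cell type that should lack Hlf gave a second measure. In 27 cells with at least 10 UMIs of the granulocyte list without Prtn3 (a set chosen after seeing the data, since Prtn3 itself was found in 831 cells), Hlf had 1 UMI in 1 cell, a share of 3.70% (0.0937 to 19.0%). In all other cells the share was 53.7%. The granulocyte-marked cells were deeper, with a median of 2561 against 1412 UMIs, and still had 1 UMI of Msi2, 2 of Mllt3, 1 of Bmi1 and none of Gfi1b or Prdm16. At the limit of 3 cells, 0 of 27 cells allows a share of up to 11.1% (12.8% as the upper Clopper-Pearson bound), so Gfi1b and Prdm16, with UMIs in 4.74% and 5.13% of the other cells, could not be told from background by this measure. Etv6 kept 12 UMIs in 8 of the 27 cells, at a ratio of CPM of 0.573 (0.296 to 1.00). Gfi1 was the reverse, with 10 UMIs in 6 of these cells, 118 CPM against 24.0 in the others, a ratio of 4.92 (2.30 to 9.33). It was 11.8 in aliquot 1 and 2.71 in aliquot 2, and 4 of the 10 UMIs lay in 1 cell. In the planned and wider set, 129 cells with at least 3 UMIs of the whole list, Gfi1 was at a ratio of 1.60 (0.828 to 2.83). That ratio was 8.23 in aliquot 1 and 0.876 in aliquot 2, on 6 and 7 UMIs. Hlf had UMIs in 45.7% of the wider set, at 480 CPM, a ratio of 0.642.

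Detection of Hlf depended on depth, with a share of 53.3% of cells that fell to 30.3% after thinning to 500 UMIs. Over cells ordered by depth, it did not rise steadily. Cells of each aliquot were ordered by total UMIs and divided into 5 depth groups of equal size, and the share of cells with a UMI was set beside the share that a single rate per UMI would give. In aliquot 2 the shares of Hlf from the shallowest to the deepest group were 41.5%, 60.1%, 69.0%, 60.9% and 51.5%, while a single rate would give 46.9% to 91.6%. In aliquot 1 they were 45.4%, 57.5%, 53.0%, 50.8% and 40.1%. Its level was lowest in the deepest group of both aliquots, at 382 CPM in aliquot 1 and 359 in aliquot 2, and at 691 CPM or more in every other group. Mllt3 had the same shape, with 90.3 and 84.2 CPM in the deepest groups and 128 to 277 in the others.

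Set against the 2723 shallower cells, the 679 cells of the deepest groups had 5 of the 8 members at least 1.5-fold lower and none as much higher, a contrast added after seeing these levels. Over all 11208 genes measured, 14.2% were as much lower. A gene counted as measured where the smaller set held, or was expected to hold, 10 UMIs or more, and the 1.5-fold limit is a rule of size, not a test. The ratios of CPM were 0.398 (0.366 to 0.432) for Hlf, 0.393 (0.330 to 0.465) for Mllt3, 0.394 (0.243 to 0.614) for Gfi1, 0.542 for Bmi1 and 0.603 for Prdm16. By aliquot, 3 members were past the limit in aliquot 1 and 4 in aliquot 2. Hlf (0.359 and 0.419) and Mllt3 (0.372 and 0.404) were past it in both. Gfi1 was at 1.14 in aliquot 1 and 0.235 in aliquot 2, Bmi1 at 0.679 and 0.481, and Prdm16 at 0.467 and 0.703. Msi2, Etv6 and Gfi1b stood at 0.811, 0.860 and 1.28. Markers of dividing cells moved with depth: 22 genes of the G2/M phase summed to 3027 CPM in the deepest groups and 812 CPM in the rest. The megakaryocyte list summed to 575 against 230 CPM and the granulocyte list to 4066 against 1150. Among cells with fewer than 3 G2/M UMIs the same 5 members were past the limit, with Hlf at 0.438 and Mllt3 at 0.505, and Gfi1b was past it upward at 1.72. The part of the other lists was not tested.

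**Figure D2:**
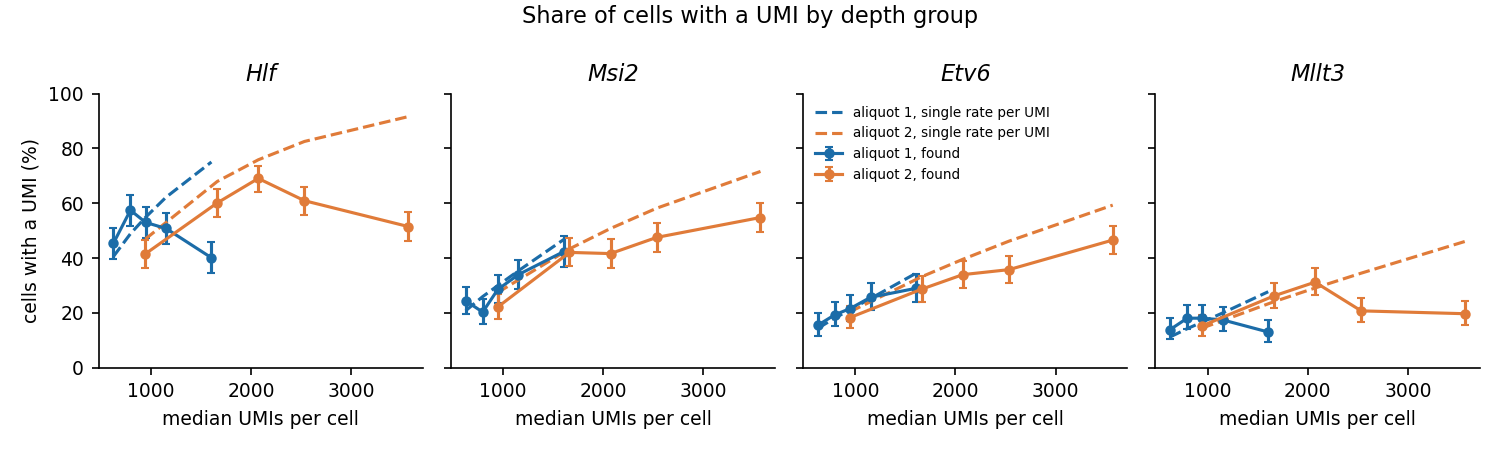
Share of cells (%) with at least 1 UMI against the median UMIs per cell of each depth group, for Hlf, Msi2, Etv6 and Mllt3 in both aliquots; points have 95% Clopper-Pearson intervals and dashed lines give the share at a single rate per UMI. Hlf and Mllt3 turn down in the deepest cells, where Hlf reached 51.5% in aliquot 2 against 91.6% on the dashed line, and Msi2 and Etv6 have their highest shares there.

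Cycling was then used to divide the cells. Those with at least 3 UMIs summed over the G2/M list (618 cells) were compared with the other 2784; 235 cells had 2 such UMIs and 101 had 3, near the limit. Hlf stood at 398 CPM in the G2/M-high cells and 859 in the others, a ratio of 0.463 (0.425 to 0.505). The ratio was 0.409 in aliquot 1 and 0.493 in aliquot 2. Mllt3 stood at 63.8 against 216 CPM, a ratio of 0.295 (0.238 to 0.364), with 0.329 and 0.287. Gfi1 (0.471), Prdm16 (0.544) and Bmi1 (0.582) were also past the limit, so 5 of 8 members were lower, where 14.9% of 10840 genes were. Gfi1 and Bmi1 did not reach the limit in aliquot 1, at 0.790 and 0.832. Msi2 was at 0.798, Etv6 at 0.846 and Gfi1b at 0.919 (0.656 to 1.27), an interval that includes 1.

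Depth differed between these sets, with medians of 2284 and 1241 UMIs, and the ratios of those 5 came closer to 1 at like depth. Against the rates of G2/M-low cells of the same aliquot and depth group, 1 of the 8 members remained past 1.5-fold, Mllt3 at 0.439. Hlf came to 0.735, Prdm16 to 0.781, Bmi1 to 0.820 and Gfi1 to 0.886, while Gfi1b moved away from 1, to 0.678. By number of G2/M UMIs, Mllt3 went from 233 CPM in cells with none to 187 with 1 to 2, 76.7 with 3 to 9 and 52.1 with 10 or more. Hlf went from 927 to 744, 417 and 381 CPM over the same bands. The median depth of the bands rose alongside, from 1059 to 2666 UMIs.

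Procr encodes EPCR, a surface receptor of LT-HSCs, and 540 cells had a Procr UMI. Gfi1 differed most by this mark, at 60.6 CPM in Procr+ cells and 18.5 in the 2862 others, a ratio of 3.27 (2.29 to 4.62). The ratio was 3.57 in aliquot 1 and 3.12 in aliquot 2. Prdm16 stood at 55.2 against 33.3 CPM (1.66, 1.18 to 2.29), Mllt3 at 251 against 159 (1.58, 1.36 to 1.83) and Hlf at 1048 against 669 (1.56, 1.45 to 1.68). Mllt3 was below the limit in aliquot 1, at 1.27 (0.907 to 1.74), and past it in aliquot 2, at 1.74. These 4 of 8 were at least 1.5-fold higher, against 9.19% of 9797 genes, and the median log2 ratio of the 8 was 0.55 beside 0.00 for all genes. Gfi1b (1.36, 0.947 to 1.93) and Bmi1 (1.29, 0.966 to 1.70) had intervals that include 1, and Gfi1b was at 0.498 in aliquot 1 and 1.56 in aliquot 2. Msi2 (1.05) and Etv6 (0.949) were nearly level.

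Procr+ cells held fewer G2/M transcripts, 916 CPM of the list against 1683. Among cells with fewer than 3 G2/M UMIs, a comparison added after seeing the data, Gfi1 remained past the limit at 3.57, and Prdm16 came to 1.48, Hlf to 1.43 and Mllt3 to 1.32. Within aliquot and depth groups Gfi1 (2.82) and Prdm16 (1.60) were past it. Granulocyte transcripts were lower in Procr+ cells, 321 against 2485 CPM. Gfi1 had UMIs in 5.74% of Procr+ cells and 2.20% of the others, and its level was 59.8 CPM with 1 Procr UMI and 62.1 with 2 or more. Gfi1b was at 31.6 CPM with 1 Procr UMI and 71.4 (45.3 to 107) with 2 or more, on 23 UMIs in 172 cells. Against cells with no Procr UMI, the latter was a ratio of 2.14.

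Cd34 is low on mouse LT-HSCs and higher on early progenitors. Mllt3 stood at 106 CPM in 918 Cd34+ cells and 207 in the 2484 others, a ratio of 0.511 (0.435 to 0.598). By aliquot it was 0.459 and 0.535. It was also 0.619 within depth groups and 0.531 in G2/M-low cells. Gfi1 was the other member past the limit, at 0.661 (0.438 to 0.975), making 2 of 8 lower where 6.68% of 11144 genes were. Its direction differed between aliquots, with 1.29 in aliquot 1 and 0.521 in aliquot 2. Hlf was at 0.850 (0.795 to 0.909) and came to 1.02 within depth groups. The other members did not reach 1.5-fold: Bmi1 was at 0.743 (0.574 to 0.955), and Prdm16 (0.771), Gfi1b (0.80), Msi2 (1.04) and Etv6 (1.07) had intervals that include 1. Prdm16 was at 1.06 in aliquot 1 and 0.701 in aliquot 2, and Gfi1b at 1.40 and 0.654. Cd34+ cells were deeper, with a median of 1818.5 against 1265.5 UMIs. They held 1765 against 1458 CPM of the G2/M list, 918 against 2723 of the granulocyte list and 23.7 against 6.82 of the lymphoid list. The part of these in the values was not tested.

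Both surface genes together set apart 421 Procr+ Cd34- cells. Gfi1 was at 73.2 CPM there, 3.88-fold (2.70 to 5.52) the level of all other cells, Mllt3 at 288 CPM (1.82, 1.55 to 2.13), Prdm16 at 61.4 CPM (1.83, 1.28 to 2.59) and Hlf at 1090 CPM (1.60, 1.47 to 1.73). These were 4 of 8 members, with 10.7% of genes as much higher. By aliquot Mllt3 was at 1.47 and 2.00, below the limit in aliquot 1, and Gfi1, Prdm16 and Hlf were past it in both. In the 119 Procr+ Cd34+ cells Mllt3 was at 145 CPM and Hlf at 927. In the 799 Procr- Cd34+ cells Mllt3 had its lowest level of the 4 sets, 99.8 CPM, and in the 2063 cells with neither it had 189. Gfi1 had 6 UMIs in the Procr+ Cd34+ cells, too few to place. The G2/M list summed to 693 CPM in the Procr+ Cd34- cells and 1546 in the Procr+ Cd34+ cells. It was at 1797 CPM in the Procr- Cd34+ cells and 1625 in the cells with neither. The part of cycling and depth in these levels was not tested.

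**Figure D3:**
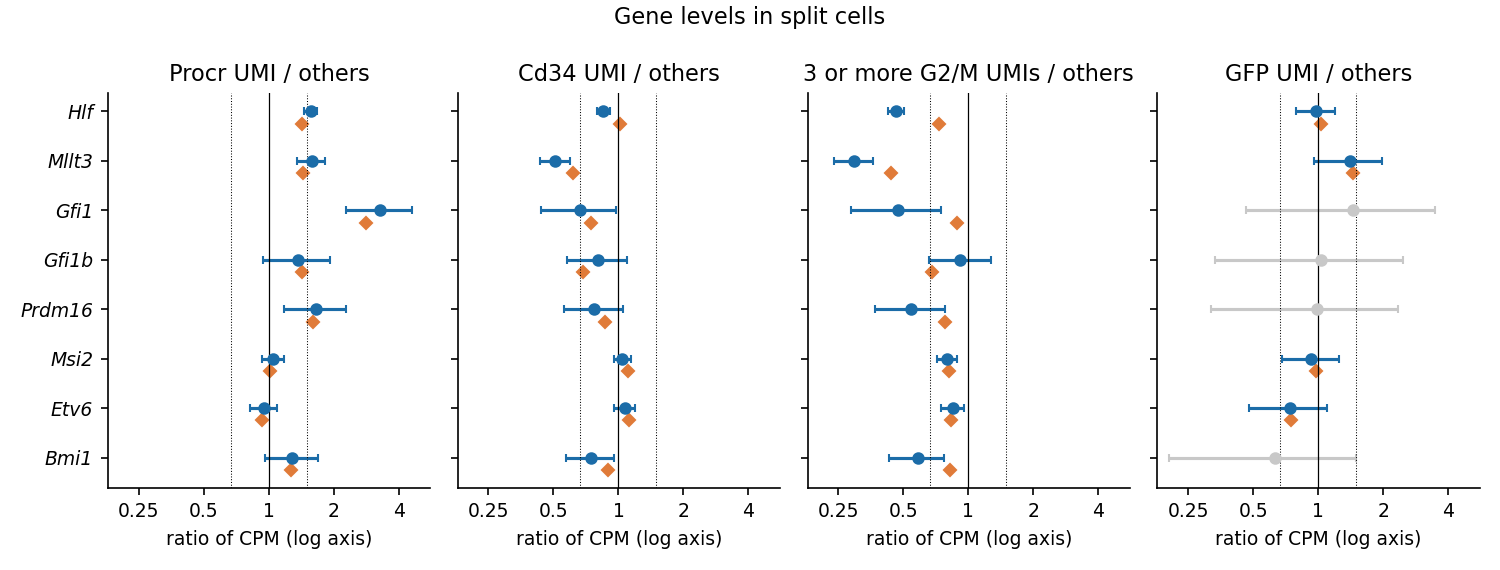
Ratio of CPM (log axis) for the 8 genes between cells with and without a Procr UMI, a Cd34 UMI, 3 G2/M list UMIs or a GFP UMI. Circles are plain ratios with 95% binomial intervals (grey with fewer than 10 UMIs observed or expected), diamonds are ratios within aliquot and depth groups, and dotted lines mark 1.5-fold; Gfi1 stands at 3.27 by Procr and Mllt3 at 0.295 by G2/M.

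Reporter transcripts marked 71 cells, 23 in aliquot 1 and 48 in aliquot 2, more than the 46 of the submitters' own processing. Hlf was at 715 CPM in them and 732 in the other 3331 cells, a ratio of 0.978 (0.792 to 1.19), with 1.53 in aliquot 1 and 0.870 in aliquot 2. Mllt3 was at 241 against 172 CPM (1.40, 0.958 to 1.98; 2.24 in aliquot 1 and 1.23 in aliquot 2), Msi2 at a ratio of 0.931 and Etv6 at 0.739. Over both aliquots none of these 4 measured members was 1.5-fold apart, where 29.3% of 3428 genes were, and all 4 intervals include 1. In aliquot 1 alone Hlf (1.03 to 2.19, on 30 UMIs) and Mllt3 (1.06 to 4.18, on 10 UMIs) were past it. Their intervals in aliquot 2 include 1, at 0.674 to 1.11 and 0.774 to 1.86. Gfi1, Gfi1b, Prdm16 and Bmi1 had 5 UMIs each in the reporter cells, too few for a comparison at this depth. Where 2 or more GFP UMIs were required, in 30 cells, Hlf was at 0.590 on 28 UMIs and Etv6 at 0.249 on 4. Mllt3 was at 1.43 on 16 UMIs there and Msi2 at 0.960 on 22. The 41 cells with 1 GFP UMI had Hlf at 971 CPM and Etv6 at 291, against 732 and 247 in cells with none. The megakaryocyte list was higher in reporter cells, 664 against 339 CPM, and the granulocyte list lower, 248 against 2179 CPM. Their part in these values was not tested. Cells of the GFP sort in which no reporter transcript was captured count among the others.

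The reporter locus itself, Mecom, was read in 507 cells, and Gfi1 again stood apart there. It was at 58.3 CPM in Mecom+ cells and 19.3 in the others, a ratio of 3.02 (2.11 to 4.30). Aliquot 1 gave 2.74 and aliquot 2 gave 3.06. Within depth groups the ratio was 2.94, and in G2/M-low cells 2.95. Gfi1b went the other way, at 22.4 against 37.7 CPM (0.595, 0.355 to 0.946), with 0.597 in aliquot 1, on 4 UMIs, and 0.584 in aliquot 2. These were the 2 of 8 members apart in either direction, beside 13.9% of 9659 genes. Hlf (1.33), Mllt3 (1.44) and Prdm16 (0.760, 0.484 to 1.15) did not reach the limit, the last of them a relative of Mecom. Mecom+ cells held 264 against 2481 CPM of the granulocyte list, 60.5 against 128 of the erythroid list and 8.96 against 159.6 of the basophil and mast cell list. The part of these in the result was not tested.

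Cells with erythroid or megakaryocyte markers set the paralogs further apart. In 151 cells with a UMI of Gata1 or Klf1, the erythroid transcription factors, Gfi1b was at 70.7 against 32.8 CPM, a ratio of 2.15 (1.37 to 3.26), with 2.25 and 2.09 in the aliquots and 2.04 within depth groups. Gfi1 had no UMI in these cells where 9.35 were expected at its rate over all kept cells. Against the limit of 3 counts over the set, a level of 8.15 CPM beside 27.2 in the others, it was at least 3.33-fold lower. The binomial interval of its ratio was wider, with an upper bound of 0.374 over both aliquots and 2.22 in aliquot 1. Gfi1 was not read within depth groups here. Hlf was at 204 against 768 CPM (0.265, 0.208 to 0.334) and Mllt3 at 65.2 against 181 (0.360, 0.229 to 0.538), or 0.396 and 0.550 within depth groups. Of 7 members measured, 4 were apart, with 28.9% of 6934 genes, the other being Prdm16 at 0.648 on 9 UMIs. Gata1-or-Klf1 cells were deeper, with a median of 2340 against 1379 UMIs.

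In 179 cells with at least 3 UMIs of the megakaryocyte list (Pf4, Itga2b, Gp1bb, Gp9 and Vwf), Gfi1b was at 75.7 against 31.2 CPM, a ratio of 2.42 (1.66 to 3.46). It was found in 16.8% of these cells and 4.03% of the others, and the ratio was 2.48 within depth groups. Hlf (0.378), Mllt3 (0.369), Gfi1 (0.435 on 6 UMIs), Msi2 (0.634) and Bmi1 (0.658) were lower, so 6 of 8 were apart, beside 29.5% of 8106 genes. Hlf was at 0.159 in aliquot 1, on 9 UMIs, and 0.431 in aliquot 2, and 21 of its 151 UMIs in these cells lay in 1 cell. The count was 3 in G2/M-low cells, 3 in aliquot 1 alone and 4 within depth groups, where Msi2 (0.685) and Bmi1 (0.933) were not past the limit. The megakaryocyte-marked cells had a median of 2730 UMIs and a G2/M list level of 2585 CPM against 1456. Granulocyte list UMIs, at least 3 of them in 129 cells and Prtn3 among them, gave 6 of 8 members apart over both aliquots, beside 27.8% of 6634 genes, and 3 in each aliquot. Over both, Gfi1 was higher, and Hlf, Mllt3, Gfi1b, Etv6 and Bmi1 were lower. Some stem cells also carry Vwf and Itga2b, so the megakaryocyte list does not mark a single lineage.

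**Figure D4:**
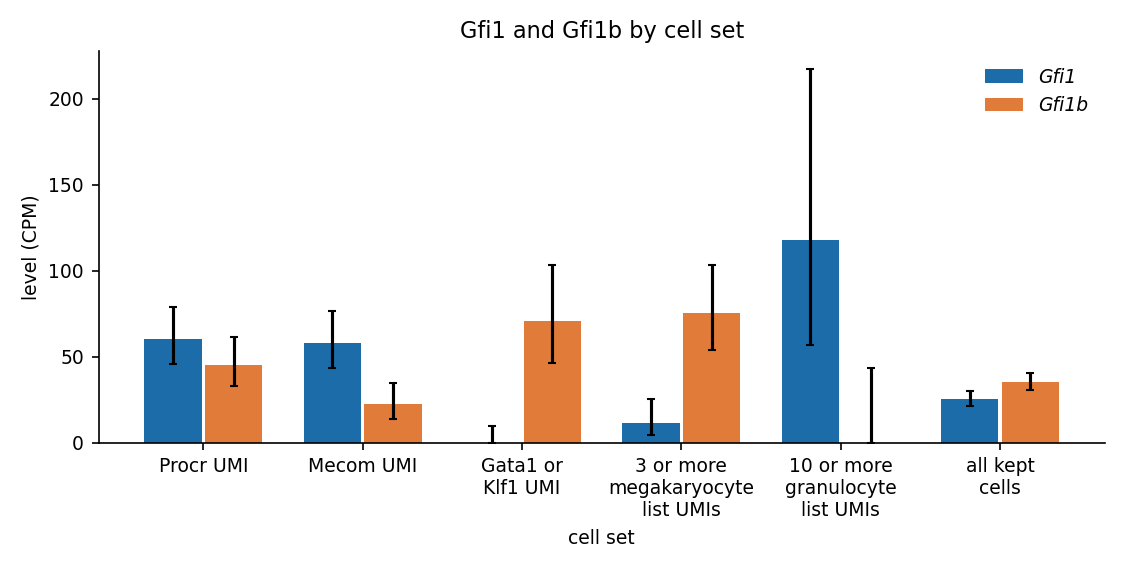
Level in CPM of Gfi1 and Gfi1b in 5 overlapping cell sets and in all kept cells, with 95% Poisson intervals. Gfi1b is highest in the Gata1-or-Klf1 cells (70.7 CPM) and megakaryocyte-marked cells (75.7 CPM), and Gfi1 in the 27 granulocyte-marked cells (118 CPM) and the Procr+ and Mecom+ cells.

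Pairs of members were next counted in the same cells, against the number expected if the genes were independent within each aliquot and each of 10 depth groups. The 28 pairs had a median ratio of observed to expected of 1.05, and 22 were above 1, of which 15 were above 1 in each aliquot. Pairings of a member with any gene had medians of 0.987 (Gfi1) to 1.01 (Gfi1b). The share of such pairings above 1 was not counted, so the 22 and the 15 cannot be set against it. Without the depth strata the median was 1.11. Hlf and Gfi1b met least often, in 66 cells against 88.2 expected, a ratio of 0.748 (0.579 to 0.952), with 0.740 in aliquot 1 and 0.751 in aliquot 2. It was the only pair at or below 0.8, where 8.18% of 62159 pairings of a member with any gene were. Gfi1 with Etv6 (39 cells against 28.7 expected, 1.36, 0.965 to 1.85) and Gfi1 with Bmi1 (10 against 7.49) were the 2 pairs at least 25% above expectation, beside 6.25% of those pairings, and both intervals include 1. Hlf and Mllt3 met in 405 cells against 372, a ratio of 1.09 (0.986 to 1.20). Gfi1 and Gfi1b met in 6 cells against 5.22. Only the interval of Hlf with Gfi1b leaves out 1 among the 28 pairs.

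**Figure D5:**
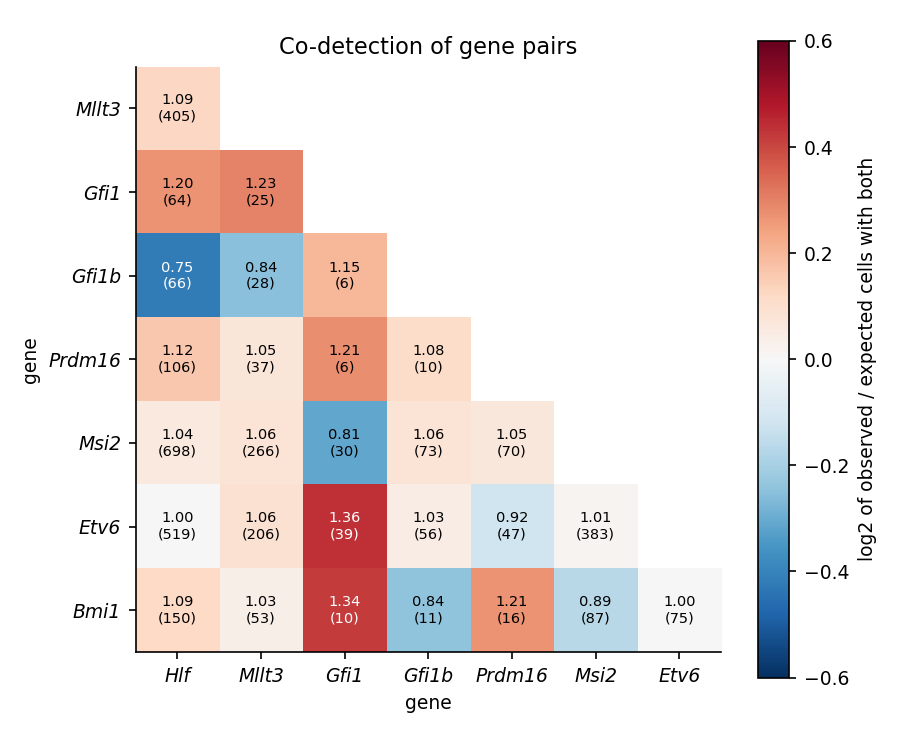
Cells holding UMIs of both genes, observed over expected within aliquot and 10 depth groups, for the 28 pairs (colour is the log2 ratio, numbers are the ratio and, in brackets, the cells observed). Most squares lie near 1, with a median of 1.05, and Hlf with Gfi1b is lowest at 0.75.

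For each member, the 3 genes met most above expectation in aliquot 2 were then read in the separate cells of aliquot 1. The measure is the observed to expected ratio above, ranked over up to 5661 genes, and ratios in aliquot 2 are high by selection. For Mllt3 the leading gene was Cdkn1c, the cell cycle inhibitor p57, at 1.68 in aliquot 2 and 1.61 (1.02 to 2.41) in aliquot 1. Cdkn1c also stood among the 3 of Hlf, at 1.27 and 1.20 (0.899 to 1.58), with Igf2r at 1.28 and 1.19 and Alcam, at 1.06 in aliquot 1. For Gfi1, Mecom was among the 3, at 1.81 and 2.58 (1.18 to 4.91, 9 cells), after Smpdl3a and Tmem176a, which had 4 cells each in aliquot 1. Bmi1 was led by Fam110a, at 1.97 and 2.19 (1.05 to 4.04, 10 cells). The other leading genes of Bmi1 were Urod and Auh, and those of Mllt3 were App and Mamdc2. Pafah1b2, A230046K03Rik and Pex7 led for Gfi1b, Prkce, Vwf and D10Jhu81e for Prdm16, Mpzl1, Arhgap25 and Arhgef5 for Msi2, and Zfp760, Cntln and Gemin5 for Etv6. In aliquot 1 the ratio fell below 1 for Urod (0.518), Vwf (0.613), Cntln (0.716), A230046K03Rik (0.790) and Smpdl3a (0.843). It did so too for App (0.861), D10Jhu81e (0.919), Gemin5 (0.964) and Arhgap25 (0.995), and the rest of the selected genes stayed above 1. Only the intervals of Cdkn1c with Mllt3, Mecom with Gfi1 and Fam110a with Bmi1 leave out 1 in aliquot 1.

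Partners of the members were read in the same splits, from 73 genes in 9 lists of relatives, complex subunits, targets and stem cell factors. Their ratios are plain ones between sets of unlike depth, and partners were not read within depth groups in any split. Median depth was 1645.5 UMIs in Procr+ cells and 1374.5 in the others. By Procr, 64 were measured, and their median log2 ratio was 0.01. Of these, 12 were at least 1.5-fold higher and 2 lower, where 9.19% of all genes were higher and 9.42% lower. Higher were Mecom (1.81, 1.53 to 2.13), the RNA-binding Igf2bp2 (2.05), the ETS genes Ets1 (1.61) and Etv3 (1.54), the Polycomb genes Cbx7 (1.86) and Ring1 (1.57), Cdkn1c (2.08, 1.61 to 2.67) and, among stem cell factors, Hoxb5 (2.00), Hoxa7 (1.88), Nkx2-3 (1.81), Hoxa5 (1.59) and Hoxb4 (1.51). Lower were Pcgf6 (0.600) and the cell cycle inhibitor Cdkn2c (0.598), whose intervals include 1. None of the 12 elongation complex partners of Mllt3, among them Cdk9 and Ccnt1, and none of the 7 corepressors of Gfi1 and Gfi1b, among them Hdac2 and Ehmt2, was apart.

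By G2/M, 65 partners were measured, with a median log2 ratio of -0.31 beside -0.05 for all genes. Of these, 17 were lower and 2 higher, where 14.9% of all genes were lower and 11.8% higher. Median depth was 2283.5 UMIs in the G2/M-high cells and 1240.5 in the others, and its part in these ratios was not tested. For the members, the number past the limit by G2/M went from 5 to 1 within depth groups. The stem cell factors gave 7 of the 17, Hoxa7 (0.156), Hoxb5 (0.357), Hoxb4 (0.399), Hoxa5 (0.478), Hoxa9 (0.515), Nkx2-3 (0.523) and Lmo2 (0.661), and Mecom was at 0.394 (0.316 to 0.487). Higher were Cdkn2c (7.41, 4.83 to 11.6) and Syncrip (1.53), an RNA-binding protein that interacts with Msi2. The corepressor Rcor2 (0.474), Cdkn1c (0.584), the elongation partner Aff3 (0.611) and Hlf's relative Tef (0.625) were among the lower. By Cd34, 66 were measured, with Ets1 (0.494), Igf2bp2 (0.545), Cbx8 (0.555), Cdkn1c (0.617) and Nkx2-3 (0.646) lower and Pcgf1 (1.89) and Cdkn1a (1.66) higher. Of all genes measured by Cd34, 6.68% were as much lower and 5.54% as much higher. By GFP, 38 were measured, with 6 higher, led by the elongation factor Eaf1 (2.50, 1.31 to 4.37) and Pcgf2 (2.07, 1.19 to 3.36), and 1 lower, Rcor1 (0.518, 0.189 to 1.13). Of all genes measured by GFP, 18.1% were as much higher and 11.2% as much lower.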

How the data were processed

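The authors deposited raw counts, whole-number UMI counts per gene and barcode with no normalization, per the file values. Upstream tools were RSEM 1.3.0, Bowtie 1.1.1 and SAMtools 1.3.1 on GRCm38, per the submitters' processing notes; their settings, and whether counting used strand, are not given in the sources used here. Most genes overlapping members have no feature in the files; Gm11510, a pseudogene inside Msi2, had 31 UMIs.

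The GFP feature was left out of totals. UMIs were summed over cell sets and scaled to CPM. CPM has exact Poisson intervals, ratios of CPM conditional binomial intervals and shares Clopper-Pearson intervals, at 95%. On counts simulated for the Procr split, intervals held the true ratio for 95.6% of 6983 unchanged genes and for 94.0% of 100 genes raised 2-fold, without bursts. Those counts were drawn as Poisson, the model the intervals assume, so this checks the calculation and not the spread of real cells. At a single rate per UMI, the members varied between cells by 1.23 (Gfi1b) to 2.53 (Hlf) times the Poisson variance. The intervals can therefore be too narrow for these genes. Scrublet in scanpy 1.11.5 marked 25 doublets (9 and 16, 0.572% and 0.875%), which were kept in the main values. Positions come from GENCODE vM21 and promoters from RefSeq (GRCm38.p6). Python 3.11.15, numpy 2.4.6, scipy 1.17.1 and pandas 2.3.3 were used.

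Members and lists were chosen with earlier results of these data known. Named genes were the members, partners past 1.5-fold, the 2 partners with most UMIs per list, and the 3 genes most co-detected with each member in aliquot 2. Alternatives changed cell filters, scaling, thinning, depth strata, split limits and aliquots.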

Additional observations from a re-analysis of the deposited data

How the results depend on the processing

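The cells of 1 pool, shallow reads and split marks found in a minority of cells limit every value, and low genes rest on few UMIs. No paired analysis was possible because both samples are aliquots of 1 group. Of 455 alternative ratios of single measured members, 380 stayed within their counting interval, a total that includes settings with nearly the same cells. The mitochondrial limit, marked doublets, scaling and the cell with most UMIs moved none of 28 ratios each. In aliquot 1 alone, 24 stayed within it, 24 left it and 2 changed direction. After thinning 9 stayed and 9 left, and within depth groups 47 stayed and 12 left. Of the 455, 28 lay on the other side of 1 from the value over all cells. Of these 28, 2 were of a member past 1.5-fold, both Gfi1 in aliquot 1 alone. They stood at 1.29 by Cd34 (0.521 in aliquot 2) and 1.14 in the deepest cells (0.235 in aliquot 2). The other 26 were of members not past it. The summed level of the 8 genes was 1657 CPM, 1555 with a 1000 UMI minimum, 2039 scaled without mitochondrial and ribosomal protein genes, and 1585 to 1834 over single aliquots. Any member was found in 83.2% of cells, 55.0% after thinning to 500 UMIs, 72.4% at 1000 (1092 shallower cells left out) and 79.4% to 86.6% by aliquot. The median co-detection ratio was 1.03 to 1.04 in single aliquots. Members 1.5-fold apart by Procr numbered 4, but 2 within depth groups, 1 after thinning, 1 in G2/M-low cells and 3 to 5 by aliquot. After thinning, Gfi1, Gfi1b and Bmi1 were not measured by Procr. By Cd34 they numbered 2, but 1 with a 1000 UMI minimum, without marked doublets, within depth groups, after thinning and in G2/M-low cells, 5 at a limit of 25%, and 1 to 3 by aliquot. By G2/M they numbered 5, but 1 within depth groups, 3 after thinning and 3 to 5 by aliquot. Thinned cells were split at 1 G2/M UMI in place of 3. Over the splits, 10 thinned member ratios had too few UMIs to be measured, with Gfi1 among them by Procr, Cd34 and G2/M. By GFP they numbered 0, but 1 with a 1000 UMI minimum, 1 without the cell with most UMIs, 2 at 2 GFP UMIs, 2 at a limit of 25% and 0 to 2 by aliquot. The counts were 1 to 3 by aliquot for Mecom, 3 to 5 for the megakaryocyte list (3 in G2/M-low cells) and 3 in each aliquot for the granulocyte list (6 over both, 3 in G2/M-low cells). In the deepest cells they numbered 5, but 3 to 4 by aliquot and 6 in G2/M-low cells. Partners apart by GFP numbered 7, and 2 to 5 by aliquot. The G2/M-low comparisons, and those by aliquot of detection, Mecom, the deepest cells, the marker lists and partners, were chosen after seeing the data.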
